A study of Homo sapiens with 6 samples.

Results

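The RNA levels of 8 genes were followed in 6 RNA-seq libraries: LARP7, the noncoding RNA 7SK (gene RN7SK), the 7SK capping enzyme MEPCE, the inhibitors HEXIM1 and HEXIM2, and the kinase CDK9 with its cyclins CCNT1 and CCNT2, which together form P-TEFb. They were chosen by name, as the rows whose gene symbol equals one of these 8. All 8 were found in each table, out of 48817 gene symbols in the mouse table and 56623 in each human table. In the mouse table Rn7sk has 2 overlapping entries, of 331 and 328 bases, that carry the same 18 reads, and the longer one was used. All 8 had at least 1 RPKM (reads scaled to gene length and library depth) in at least 1 library of every pair, which is the level asked of a gene before its ratio is read. In MEFs Rn7sk reached it in the wild-type library alone and Hexim2 in the knockout library alone, so each passed through the library where it is higher.

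In each of 3 cell types a culture depleted of LARP7 was set beside a control, with 1 library per group. Primary mouse embryonic fibroblasts (MEFs) came from wild-type or LARP7-/- embryos at E13.5 and were used between passages 1 and 6. MDA-MB-231 and HCC1937, established human breast cancer lines, received either siLARP7 or the control siNC, with siRNA at 10 ng/ml. The labels give neither the deleted part of Larp7, nor the siRNA sequence or the time after transfection, nor how many embryos a MEF library holds. They also name the human species for the MEFs, whose table lists mouse gene IDs. Since no group has a second library, every difference below lies between 2 libraries, has no replicate check and was not tested. The 95% intervals are exact and cover counting error only.

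In cells most P-TEFb is held inactive on the 7SK particle. MEPCE caps the 5′ end of 7SK, LARP7 binds its 3′ end and protects it from decay, and a HEXIM dimer on the RNA inhibits CDK9 bound to cyclin T1 or T2. Released P-TEFb phosphorylates RNA polymerase II and the factors that hold it paused near the start of genes, which lets it elongate.

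The ends of the 7SK RNA are shown because its proteins meet there: HEXIM1 on the 5′ hairpin, through a GAUC motif, and LARP7 on the 3′ end. The human transcript in GENCODE release 29 has 328 bases at chr6:52995621-52995948 on the plus strand of GRCh38. Its bases 1 to 110 (chr6:52995621-52995730) and 269 to 328 (chr6:52995889-52995948) are printed as DNA, with every GATC in capitals.
RN7SK, 5′ part: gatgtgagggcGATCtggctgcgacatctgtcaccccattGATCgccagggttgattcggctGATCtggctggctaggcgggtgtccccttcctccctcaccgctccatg
RN7SK, 3′ part: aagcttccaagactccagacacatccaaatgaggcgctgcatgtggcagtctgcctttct
GATC reads the same on both strands and starts at bases 12, 41 and 63, so all 3 copies in the transcript lie in its 5′ part and none in its 3′ part. Of 1702 other GENCODE transcripts between 318 and 338 bases long, 62.6% hold the motif and 9.28% hold at least 3 copies. The GC content of the whole RNA is 58.2%, and its 3′ end closes in a stretch rich in T (U in the RNA).

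Library depth ran from 36.9 M to 53.3 M reads. The labelled cell types showed their markers: 8 of 8 fibroblast genes were at 1 RPKM or more in both MEF libraries, 6 of 6 epithelial genes in both HCC1937 libraries, and 5 of 5 mesenchymal genes in both MDA-MB-231 libraries, which also had 3 of the 6 epithelial genes. The mesenchymal genes did not set MDA-MB-231 apart, since 4 of 5 reached 1 RPKM in both HCC1937 libraries and 5 of 5 in both MEF libraries, but their summed level was 402 to 435 RPKM in MDA-MB-231 and 50.1 to 55.8 RPKM in HCC1937. In MEFs the summed level of 5 leukocyte genes was 28.9 RPKM in wild-type cells against 37.9 RPKM in knockout cells. Of the 5, 3 reached 1 RPKM in wild-type and 4 in knockout cells. Lyz2 stood at 22.4 and 28.3 RPKM, Csf1r at 3.55 and 4.22, Cd68 at 2.05 and 3.62, and Adgre1 at 0.844 and 1.77. The pan-leukocyte gene Ptprc stood at 0.037 and 0.029 RPKM. The part of leukocytes in the values below was not tested.

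LARP7 RNA was lower in each depleted library and was never lost. In wild-type MEFs Larp7 stood at 15.2 RPKM (1326 reads) and in the knockout at 5.72 RPKM (505 reads), 37.6% (33.9 to 41.7%) of the wild-type level. Because the deleted part is not known, the reads left in the knockout do not tell whether a full transcript remained. In MDA-MB-231 LARP7 stood at 8.65 RPKM (1751 reads) with siNC against 4.51 RPKM (982 reads) with siLARP7, and in HCC1937 at 5.62 RPKM (1131 reads) against 2.89 RPKM (597 reads). These are 52.2% (48.2 to 56.4%) and 51.4% (46.5 to 56.8%) of the siNC level. A bulk library cannot tell a lower level in every cell from a loss in some of the cells.

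Ratios were taken as log2 of RPKM + 1, where differences of low genes look smaller than they are. LARP7 differed by -1.27 in MEFs, -0.81 in MDA-MB-231 and -0.77 in HCC1937. Its ratio lay at percentile 0.307 of 14479 MEF genes, 1.48 of 17575 genes in MDA-MB-231 and 4.38 of 15797 genes in HCC1937. In HCC1937 the median log2 ratio of all genes was itself -0.14, against 0.00 in the other pairs, and with that shift scaled away LARP7 stood at 56.4% (51.0 to 62.4%) of control. After correction for a trend of the ratio with GC content, gene length and level, the HCC1937 ratio was -0.49, short of a 1.5-fold difference.

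**Figure D1:**
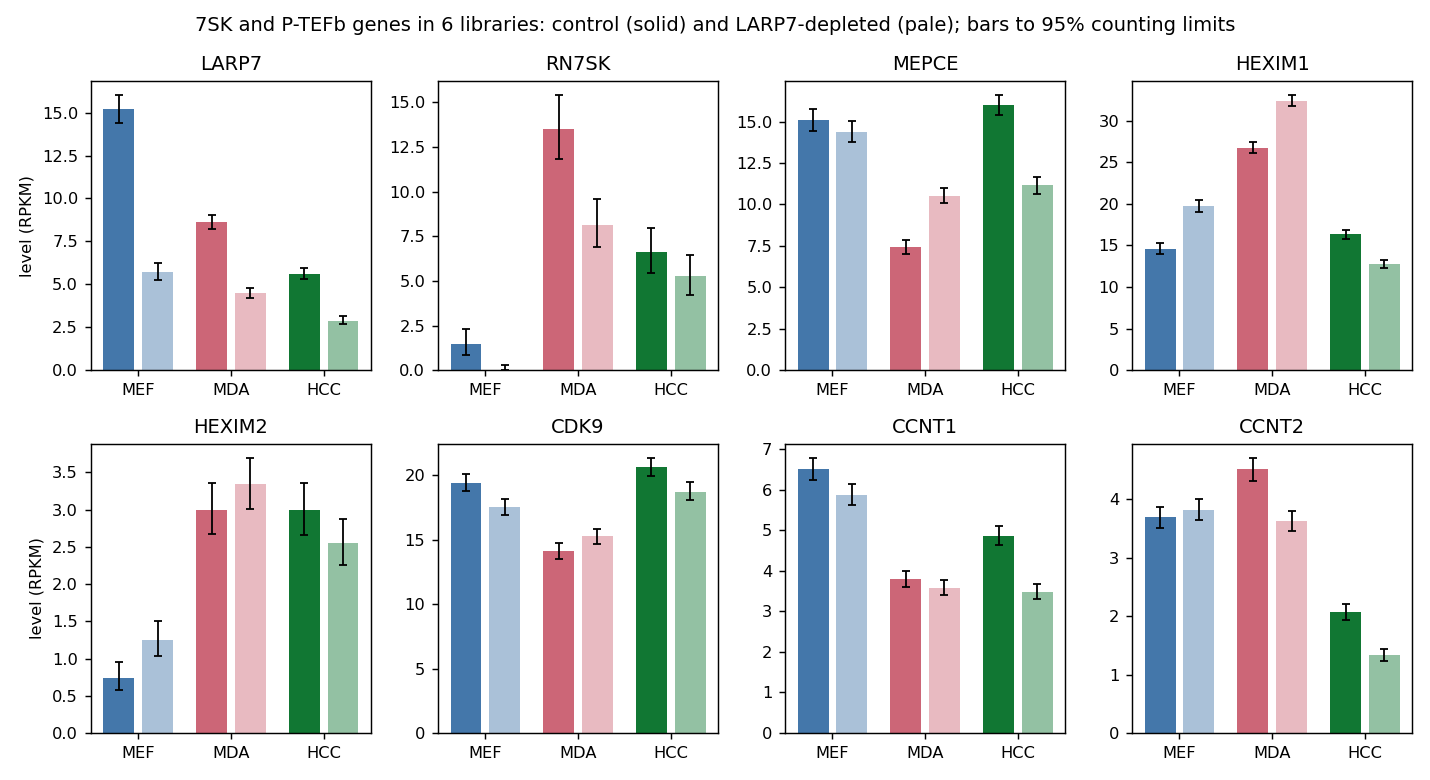
RPKM of the 8 genes in the 6 libraries, by cell type (MEF; MDA, for MDA-MB-231; HCC, for HCC1937), with the control solid, the LARP7-depleted library pale and error bars spanning the 95% counting interval of 1 library. LARP7 is lower in each pale bar, MEPCE and HEXIM1 are higher in MDA-MB-231 and lower in HCC1937, and Rn7sk is at 0 in the knockout MEFs.

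A size rule marked the genes whose ratio on this scale reached 2-fold, and then 1.5-fold. In MEFs it called 0 of the 8 genes as 2-fold higher and 2 as lower, Larp7 and Rn7sk, where 2.4% of all tested genes were called higher and 0.884% lower. Larp7 is the deleted gene itself, and Rn7sk reached 1 RPKM in the wild-type library alone. None of the 8 reached 2-fold in MDA-MB-231, where 0.501% of all genes were called higher and 0.74% lower, or in HCC1937, where 0.399% were called higher and 1.23% lower. At 1.5-fold, the same pair was called lower in MEFs, LARP7 and RN7SK in MDA-MB-231, and LARP7 alone in HCC1937, where 4.02%, 4.03% and 10.8% of all genes were called lower. None of the 8 was 1.5-fold higher in any pair on this scale, where 7.98%, 2.88% and 2.75% of all genes were. Hexim2 in MEFs passes 1.5-fold with a smaller pseudocount, at a log2 ratio of 0.68 with 0.1 RPKM and 0.76 with none, in place of 0.37.

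By sign alone, 3 of the 8 genes lay above 0 and 5 below in MEFs, and 4 and 4 in MDA-MB-231. All 8 lay below 0 in HCC1937. These counts include the genes called by size. Of all tested genes, 49.97% lay below 0 in MEFs, 49.79% in MDA-MB-231 and 64.4% in HCC1937. The median log2 ratio of the 8 genes was -0.10 in MEFs, 0.02 in MDA-MB-231 and -0.36 in HCC1937.

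**Figure D2:**
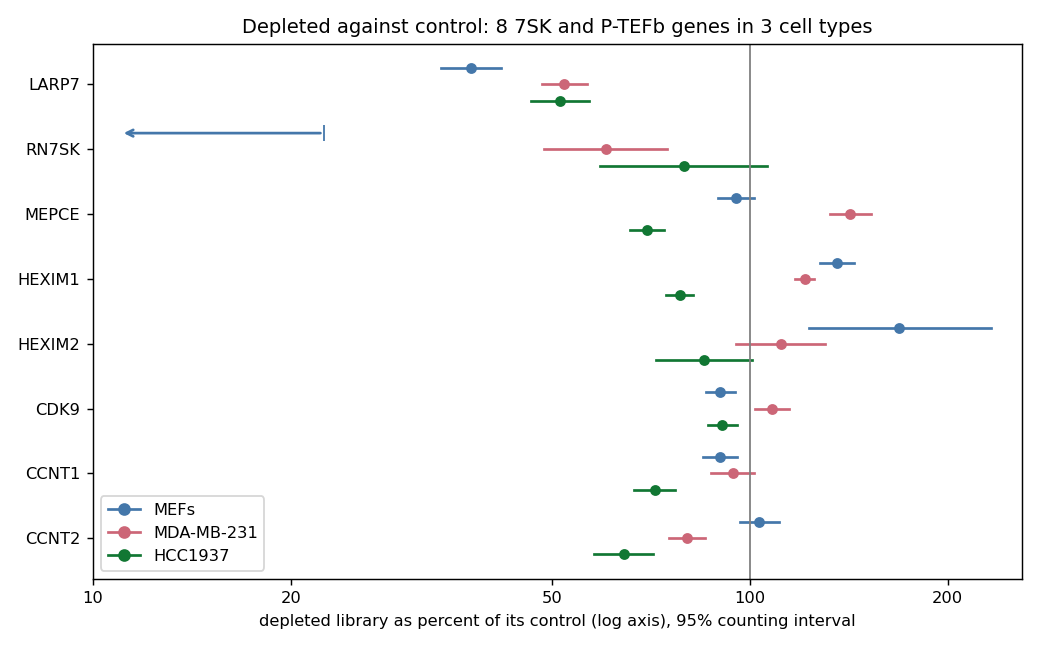
Level in the LARP7-depleted library as a percent of its control, on a log axis, for the 8 genes in the 3 cell types, with 95% counting intervals; the arrow marks Rn7sk in MEFs, at 0 with an upper end of 22.5%. LARP7 lies left of 100% in all 3 cell types, while MEPCE, HEXIM1 and CDK9 fall on different sides in different cells.

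The 7SK RNA, which LARP7 stabilises, was read in 5 of the 6 libraries. Wild-type MEFs had 18 reads (1.47 RPKM) and the knockout had 0 reads, with a counting interval of the ratio that ends at 22.5% of the wild-type level. In MDA-MB-231 RN7SK had 222 reads (13.52 RPKM) with siNC against 144 reads (8.16 RPKM) with siLARP7, 60.3% (48.6 to 74.7%) of the siNC level. In HCC1937 it had 108 reads (6.61 RPKM) with siNC and 88 reads (5.25 RPKM) with siLARP7, 79.4% (59.2 to 106%), a difference not detectable at this depth. The log2 ratios were -1.31, -0.67 and -0.28 in that order, at percentiles 0.252, 2.86 and 34.2 of all tested genes. The MEF value rests on few reads and depends on the pseudocount, being -3.98 with 0.1 RPKM added. For 7SK, the log2 change that the authors deposited, made by GFOLD, is -1.32 in MEFs, -0.37 in MDA-MB-231 and 0 in HCC1937. Those values are not plain ratios: HEXIM2 also has 0 in both human lines, at log2 ratios of 0.12 in MDA-MB-231 and -0.17 in HCC1937.

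The labels do not say if poly(A) RNA was selected, so the capture of 7SK, a short RNA without a poly(A) tail, may differ between libraries, and its RPKM is not comparable with that of mRNAs. Other short RNAs made by RNA polymerase III were read beside it. The signal recognition particle RNA 7SL (RN7SL1 and RN7SL2 in human, Rn7s1 and Rn7s2 in mouse), whose near-identical copies share reads, went in different directions. In MDA-MB-231 RN7SL1 stood at 144 and 76.7 RPKM (siNC, then siLARP7), 53.4% (49.7 to 57.3%) of control, and RN7SL2 at 50.3% (47.6 to 53.2%). In HCC1937 RN7SL1 stood at 481 and 907 RPKM, 188% (183 to 194%) of control, and RN7SL2 at 176% (172 to 180%). In MEFs Rn7s1 stood at 22.4 and 35.1 RPKM, 157% (133 to 184%), and Rn7s2 at 158% (135 to 187%). 7SK was therefore lower together with 7SL in MDA-MB-231, and lower or little different while 7SL was higher in the other pairs. As a share of summed 7SL, 7SK was 3.53% with siNC and 4.14% with siLARP7 in MDA-MB-231, 0.496% and 0.218% in HCC1937, and 3.30% and 0% in the MEFs. The part of 7SL capture in the 7SK values was not tested.

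The RNA subunit of RNase P, RPPH1, did not differ beyond counting error in any pair: it stood at 87.7% (71.3 to 108%) of control in MDA-MB-231, 81.6% (65.4 to 102%) in HCC1937 and, as Rpph1, 85.4% (53.8 to 135%) in MEFs. RMRP, the RNA of RNase MRP, stood at 121% (81.2 to 182%) in MDA-MB-231 and, on 20 and 8 reads, at 39.0% (14.8 to 92.4%) in HCC1937. Y RNAs, vault RNAs and U6 entries were at or near 0 in these libraries.

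**Figure D3:**
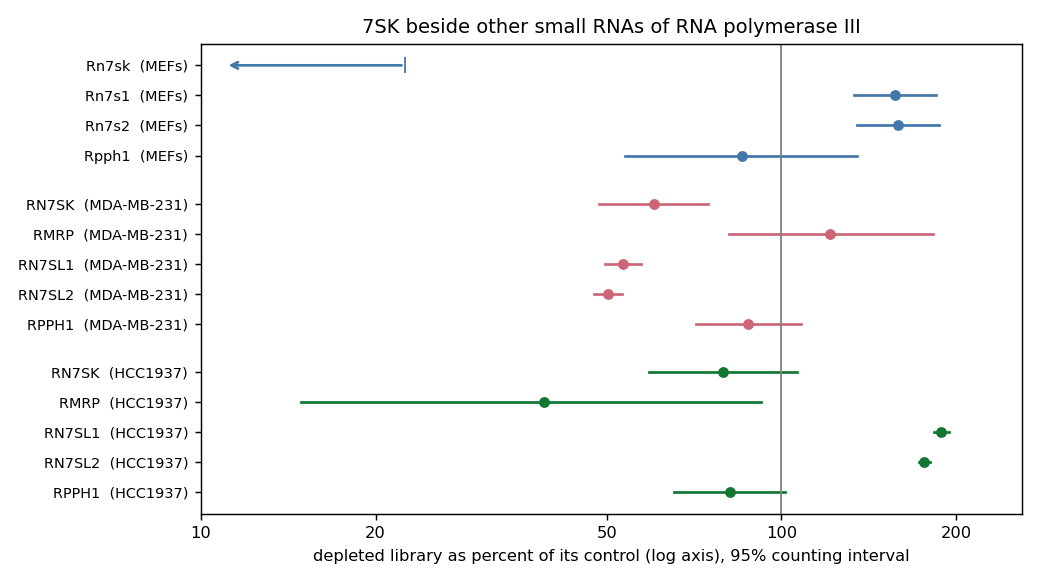
Level in the LARP7-depleted library as a percent of its control, on a log axis, for 7SK and other RNA polymerase III products, with 95% counting intervals and an arrow for Rn7sk in MEFs (0, upper end 22.5%). In MDA-MB-231 both 7SL genes lie as low as 7SK, while in HCC1937 and MEFs the 7SL genes lie above 100% and 7SK below.

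The human genome holds many copies of 7SK, and reads can be split among them. Of 308 such entries, 51 had any read in the MDA-MB-231 pair and 24 in the HCC1937 pair, 4 in each reached 1 RPKM, and none was called at 2-fold. RN7SKP241 had 43 reads with siNC and 28 with siLARP7 in MDA-MB-231, 60.6% (36.2 to 99.7%) of control, and 53 and 55 reads in HCC1937, 101% (68.1 to 150.3%). RN7SKP23 had 37 and 35 reads in MDA-MB-231 and 31 and 16 in HCC1937, 50.3% (25.7 to 94.8%) of control. No copy was above 4.18 RPKM in a control library, and the copies summed to 15.1 RPKM with siNC and 16.4 RPKM with siLARP7 in MDA-MB-231, and to 14.3 and 11.6 RPKM in HCC1937.

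MEPCE, the methyltransferase that caps 7SK and stays bound to it, went in opposite directions in the human lines. In MDA-MB-231 it stood at 7.42 RPKM (1255 reads) in control and 10.5 RPKM (1917 reads) in depleted cells, 142% (132 to 153%) of control. In HCC1937 it stood at 16.0 RPKM (2693 reads) and 11.2 RPKM (1926 reads), 69.7% (65.7 to 73.9%), or 76.5% (72.1 to 81.1%) with the median shift scaled away. MEF Mepce was at 15.1 and 14.4 RPKM, 95.3% (89.4 to 101.5%), a difference within counting error. The log2 ratios of -0.07, 0.45 and -0.48 in MEFs, MDA-MB-231 and HCC1937 lay at percentiles 40.5, 94.5 and 17.2 of all genes. Correcting for the trend with GC content, gene length and level took the HCC1937 value to -0.73, past 1.5-fold, and the MDA-MB-231 value to 0.34. The siNC levels of MEPCE in the lines were themselves far apart, and the siLARP7 levels lay close together at 10.5 and 11.2 RPKM.

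HEXIM1, the main inhibitor of P-TEFb and a gene known to be induced when P-TEFb is released from the particle, was higher in MEFs and MDA-MB-231 and lower in HCC1937. Hexim1 stood at 14.6 RPKM (1877 reads) in wild-type and 19.7 RPKM (2574 reads) in knockout MEFs, 136% (127.7 to 143.9%) of control. In MDA-MB-231 HEXIM1 stood at 26.7 RPKM (6341 reads) and 32.4 RPKM (8267 reads), 121% (117 to 125%). In HCC1937 it stood at 16.3 RPKM (3856 reads) and 12.8 RPKM (3096 reads), 78.2% (74.6 to 82.0%), and at 85.8% (81.8 to 90.0%) with the median shift scaled away. All 3 intervals lay away from 100%, yet the log2 ratios of 0.41, 0.27 and -0.33 were at percentiles 86.6, 84.8 and 29.6 of all genes.

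HEXIM2, its paralog and neighbour on chromosome 17, was the least abundant of the protein-coding members in MEFs and followed the direction of HEXIM1 in each cell type. Hexim2 had 65 reads (0.743 RPKM) in wild-type and 111 reads (1.25 RPKM) in knockout MEFs, 169% (123 to 233%) of control. In MDA-MB-231 it stood at 2.998 and 3.34 RPKM, 111% (95.4 to 130.2%), and in HCC1937 at 2.99 and 2.55 RPKM, 85.1% (71.9 to 100.8%), both within counting error. Strand use in counting is not given, so reads of genes with an overlapping gene on the opposite strand could not be told from antisense reads. In GENCODE release 29 an antisense gene shares 1026 bases of HEXIM2 exons and another 520 bases of HEXIM1 exons. Exons of LARP7 share 302 bases with an antisense gene and 32 with ZGRF1. Those of MEPCE share 203 bases with ZCWPW1, and those of CCNT2 share 148 with an antisense gene.

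Before any correction, CDK9, the kinase of P-TEFb, had the narrowest range of log2 ratios among the 8 genes. It stood at 19.4 and 17.5 RPKM in MEFs, 90.2% (85.8 to 94.8%) of control, at 14.1 and 15.3 RPKM in MDA-MB-231, 108% (101.9 to 114.6%), and at 20.7 and 18.8 RPKM in HCC1937, 90.8% (86.3 to 95.6%). With the HCC1937 shift scaled away the last value was 99.6% (94.6 to 104.9%), so CDK9 sat on the median of all genes there. Its log2 ratio stayed between -0.14 and 0.11 in the 3 pairs.

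The T cyclins, which carry CDK9 to its targets, differed little in MEFs and stood lowest against control in HCC1937. The trend with GC content, gene length and level was corrected for in the human lines only. After it CCNT1 was still lower in HCC1937 (-0.12) than in MDA-MB-231 (0.01), but CCNT2 was not (-0.06 and -0.08). Ccnt1 stood at 6.52 and 5.88 RPKM in MEFs, 90.1% (84.8 to 95.8%) of control, and CCNT1 at 3.80 and 3.58 RPKM in MDA-MB-231, 94.2% (87.4 to 101.6%). In HCC1937 CCNT1 stood at 4.87 RPKM (1746 reads) and 3.49 RPKM (1283 reads), 71.6% (66.6 to 77.0%), or 78.6% (73.0 to 84.5%) with the shift scaled away. The CCNT1 intervals thus lay below 100% in MEFs and HCC1937 and reached it in MDA-MB-231.

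CCNT2, the second T cyclin, was at 3.69 and 3.82 RPKM in MEFs, 103% (96.7 to 111%) of control. It was at 4.52 RPKM (2034 reads) and 3.62 RPKM (1755 reads) in MDA-MB-231, 80.2% (75.2 to 85.6%), and at 2.07 RPKM (927 reads) and 1.33 RPKM (611 reads) in HCC1937, 64.2% (57.9 to 71.2%) or 70.5% (63.5 to 78.1%) after scaling. In MEFs the CCNT2 interval included 100%. Its log2 ratio in HCC1937, -0.40, was at percentile 23.8 of all genes. The trend correction took CCNT2 from -0.40 to -0.06 in HCC1937 and from -0.25 to -0.08 in MDA-MB-231, and CCNT1 from -0.39 to -0.12 in HCC1937.

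**Figure D4:**
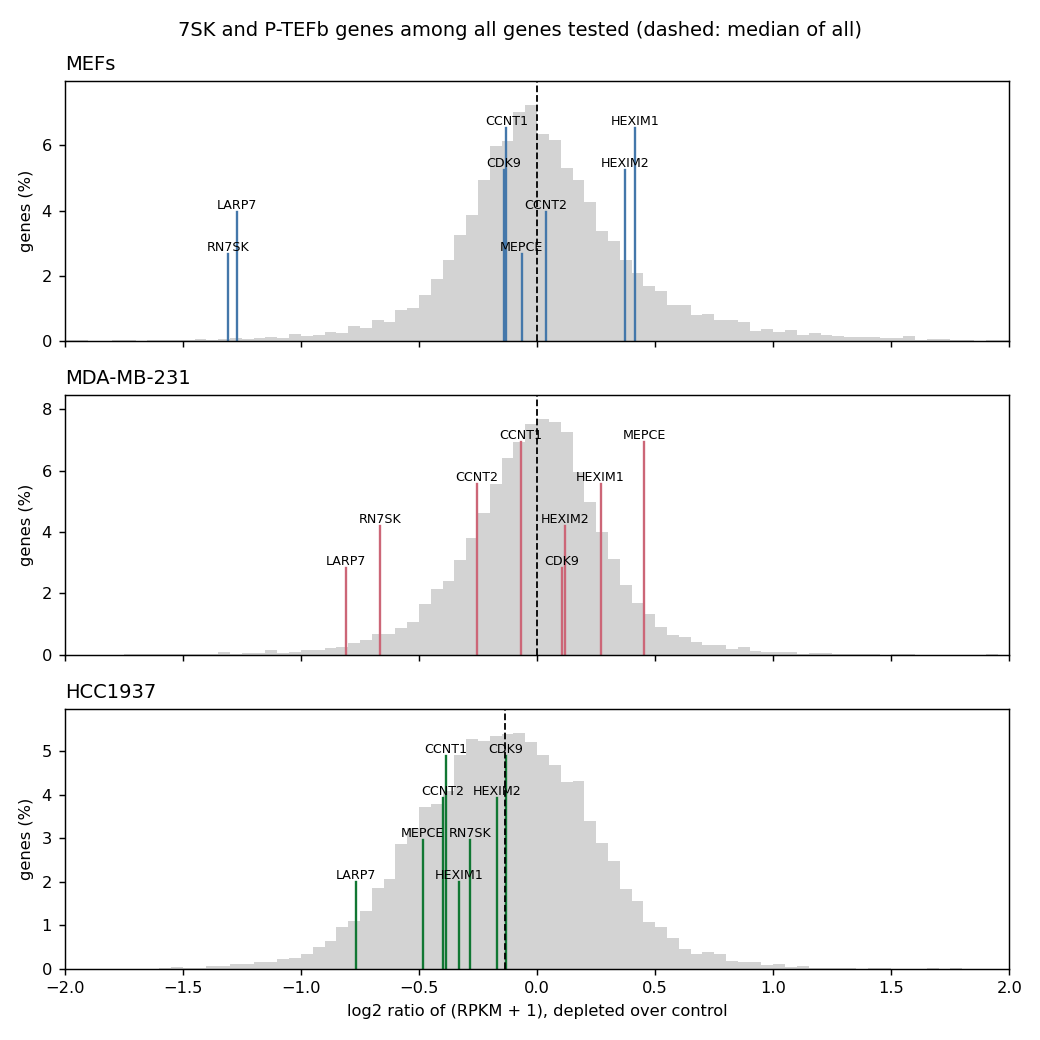
Share of all tested genes (percent) by log2 ratio of RPKM + 1, depleted over control, in each cell type, with coloured lines at the 8 genes (line heights only separate the names) and a dashed line at the median of all genes. LARP7 lies at percentiles 0.307, 1.48 and 4.38 of the 3 panels from the top, Rn7sk at 0.252 in MEFs, RN7SK at 2.86 and MEPCE at 94.5 in MDA-MB-231.

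The order of the mRNA levels within a control library differed between cell types; 7SK is left out of it because its capture is not known. In wild-type MEFs Cdk9 was highest at 19.4 RPKM, followed by Larp7, Mepce and Hexim1 at 15.2, 15.1 and 14.6 RPKM, whose counting intervals overlap, then Ccnt1, Ccnt2 and Hexim2. In MDA-MB-231 with siNC HEXIM1 was highest at 26.7 RPKM, and CDK9, LARP7, MEPCE, CCNT2, CCNT1 and HEXIM2 followed in that order without overlap. In HCC1937 with siNC CDK9 was highest at 20.7 RPKM, HEXIM1 and MEPCE at 16.3 and 16.0 RPKM overlapped, and LARP7 (5.62 RPKM), CCNT1, HEXIM2 and CCNT2 came last. LARP7 thus matched MEPCE per length in MEFs and was well below it in HCC1937.

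Ratios within a library do not depend on the scaling between libraries. LARP7 per MEPCE was 1.01 in wild-type and 0.398 in knockout MEFs, 1.17 and 0.428 in the MDA-MB-231 pair and 0.351 and 0.259 in the HCC1937 pair. The last ratio was already low with siNC. LARP7 per CDK9 went from 0.781 to 0.326, from 0.612 to 0.295 and from 0.272 to 0.154 in the same order.

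The balance of inhibitor to kinase RNA was higher in depleted MEFs and MDA-MB-231 and lower in depleted HCC1937. HEXIM1 plus HEXIM2 per CDK9 was 0.787 and 1.20 in MEFs, 2.10 and 2.34 in MDA-MB-231, and 0.936 and 0.817 in HCC1937. HEXIM2 made up 4.85 and 5.97% of HEXIM RNA in MEFs, 10.1 and 9.35% in MDA-MB-231 and 15.5 and 16.6% in HCC1937. These shares differed more between cell types than within a pair, but cell type cannot be told apart from library or, for MEFs, from species and gene models.

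Cyclin T RNA per CDK9 was 0.525 in wild-type and 0.553 in knockout MEFs, 0.589 and 0.472 in MDA-MB-231 and 0.336 and 0.257 in HCC1937. Within the T cyclins, CCNT2 held 36.1 and 39.4% in MEFs, 54.3 and 50.3% in MDA-MB-231 and 29.8 and 27.6% in HCC1937. MDA-MB-231 was the cell type with more CCNT2 than CCNT1 RNA per length, by less than counting error with siLARP7.

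**Figure D5:**
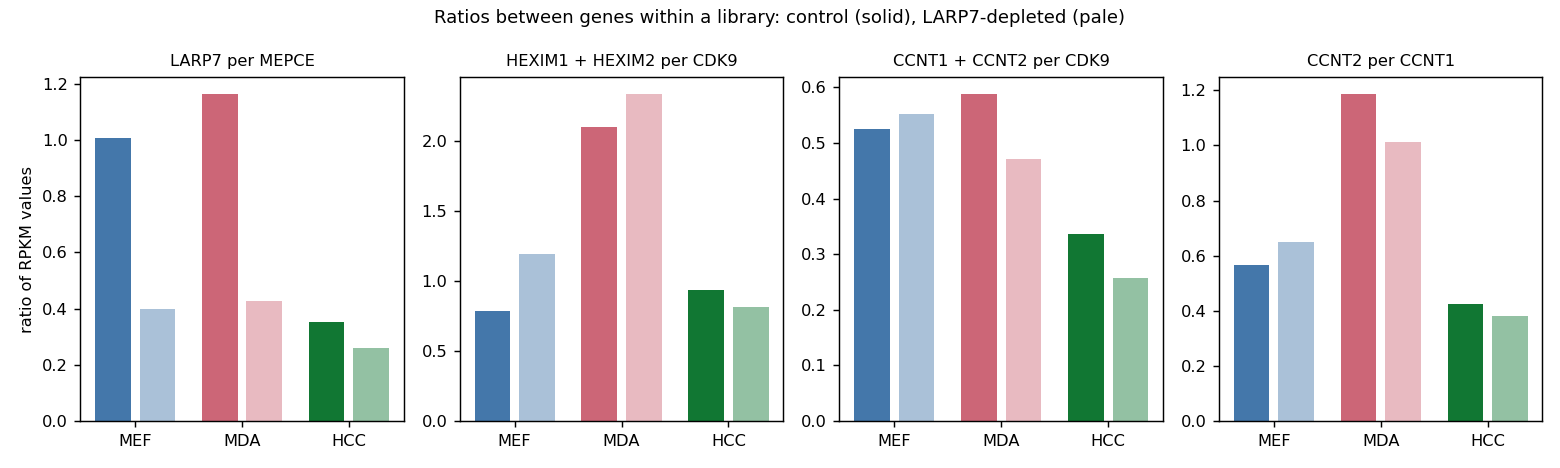
Ratios of RPKM between genes of the same library, by cell type, with the control solid and the LARP7-depleted library pale (1 library each, no error bars). LARP7 per MEPCE is lower in each pale bar, from 1.01 to 0.398 in MEFs, and HEXIM per CDK9 is highest in MDA-MB-231.

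The genes around the particle and P-TEFb were read as 6 lists beside the small RNAs above, and no member of any list was called at 2-fold in any pair. Few of all tested genes were: 2.4%, 0.501% and 0.399% higher in MEFs, MDA-MB-231 and HCC1937, and 0.884%, 0.74% and 1.23% lower. Proteins known to bind 7SK outside the core particle, such as the hnRNPs, were all below 0 in MEFs (9 of 9, median log2 ratio -0.35, against 0.00 for all genes). Hnrnpa1 was lowest there, at 259 and 161 RPKM (-0.68), and Hmga1 highest, at 543 and 498 RPKM (-0.12). The same list had 3 of 9 above 0 in MDA-MB-231 (median -0.03; RBM7 lowest at -0.19, HMGA1 highest at 0.23) and 4 of 9 in HCC1937 (median -0.06 against -0.14; SYNCRIP lowest at -0.44, HMGA1 highest at 0.29). With the HCC1937 shift scaled away the last median was 0.07.

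Factors that release or recruit P-TEFb had a median of -0.24 in MEFs (2 of 9 above 0), -0.04 in MDA-MB-231 (4 of 9) and 0.00 in HCC1937 (4 of 9). The helicase gene DDX21, whose product frees P-TEFb from 7SK, was the lowest of them in MEFs, at 48.1 and 30.5 RPKM (-0.64), and in HCC1937, at 25.5 and 16.4 RPKM (-0.61). PPM1A was lowest in MDA-MB-231 (-0.25), and Ppp3ca (0.26), TRIM28 (0.15) and JMJD6 (0.24) were the highest in the 3 pairs in that order. The HCC1937 median was 0.13 with the shift scaled away. Subunits of the super elongation complex, the form in which P-TEFb is delivered to genes, had medians of -0.11 (7 tested), -0.10 (8) and -0.32 (8). Their extremes were Aff1 (-0.31) and Ell2 (0.04) in MEFs, ELL3 (-0.28) and ELL (0.13) in MDA-MB-231, and AFF4, the scaffold, at 13.3 and 7.12 RPKM (-0.81) with ELL (0.27) in HCC1937.

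The list of pausing factors, which also held SUPT6H and the polymerase gene POLR2A, had a median of -0.17 in MEFs. There 1 of 6 genes lay above 0, with Nelfe lowest (-0.33) and Nelfb highest (0.10). SUPT5H and SUPT6H were not matched by symbol in the mouse and are missing from the MEF values. The median was 0.02 in MDA-MB-231 (6 of 8 above 0), with NELFCD lowest (-0.10) and NELFB highest (0.35). In HCC1937 it was -0.06 (3 of 8), with SUPT6H lowest (-0.40) and NELFA highest (0.12). The HCC1937 median of the pausing factors was 0.07 with the shift scaled away and -0.35 with the trend corrected for. Other transcription kinases and their cyclins had medians of 0.01 in MEFs (6 of 12 above 0; Cdk19 -0.26, Ccnl2 0.38), 0.08 in MDA-MB-231 (8 of 13; CDK7 -0.34, CCNL2 0.36) and -0.31 in HCC1937 (0 of 13). In HCC1937 CCNC, the cyclin of the Mediator kinase, was lowest at 11.1 and 6.60 RPKM (-0.67) and CDK19 highest at -0.02. The P-TEFb genes CDK9, CCNT1 and CCNT2 therefore lay below 0 in HCC1937 alongside all 13 kinases and cyclins of that list, in a pair where the median of all genes was -0.14, and the list median of -0.31 was -0.14 with the trend corrected for.

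Short-lived mRNAs known to need P-TEFb lay higher in the depleted human lines. Their median log2 ratio was -0.04 in MEFs (1 of 6 above 0), 0.34 in MDA-MB-231 (5 of 6) and 0.35 in HCC1937 (6 of 6), or 0.29 and 0.14 in the lines with the trend corrected for. FOS was highest in MEFs (2.47 and 3.59 RPKM, 0.40) and in MDA-MB-231 (5.50 and 9.99 RPKM, 0.76), and JUNB in HCC1937 (139 and 221 RPKM, 0.67). MYC, the lowest of them in MEFs at 42.4 and 32.3 RPKM (-0.38), and MCL1, the lowest in the lines (-0.02 in MDA-MB-231 and 0.11 in HCC1937), set the other end. HEXIM1 lay above 0 with most of them in MDA-MB-231 and below 0 in HCC1937.

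Of 7813 genes that were tested in all 3 pairs and matched by symbol, 1805 (23.1%) were lower in all 3. Symbols with more than 1 tested entry in a table were left out, and 7SK was among them because Rn7sk has 2. Among the 7813, only LARP7, CDC25C and NSL1 were at least 1.5-fold lower in each. No other had a ratio at or under that of LARP7 in all 3. The 5 genes whose 3 log2 ratios lay nearest to those of LARP7, by Euclidean distance among 7812 others over 3 cell types, were ECT2 (distance 0.40), CCNB1 (0.42), NEK2 (0.52), ANLN (0.53) and CDC25C (0.55). ECT2 differed by -1.19 in MEFs, -0.54 in MDA-MB-231 and -1.05 in HCC1937, and the CDK1 cyclin gene CCNB1 by -1.23, -0.96 and -0.38. NEK2 differed by -1.08, -0.59 and -0.34, ANLN by -1.41, -0.33 and -0.60, and CDC25C by -0.85, -1.16 and -0.81. None of the other genes of the particle and P-TEFb that were compared stood among them. 7SK was not compared, and its log2 ratios were -1.31, -0.67 and -0.28 in the same order.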

How the data were processed

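Total RNA of 6 cultures was sequenced, and the submitters' processing notes name cutadapt, FastQC, STAR and the build GRCh37, without versions. RPKM per gene is what the authors deposited for each library, per the file headers, beside a log2 change made by GFOLD with the setting 0.01. The counting rules, strand, poly(A) selection and the mouse build are not given in the sources used here.

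RPKM values were compared as log2(RPKM + 1) among genes that reached 1 RPKM in a library of the pair, and called by size at 2-fold and 1.5-fold. Read numbers were recovered from the RPKM steps: all tested single-exon human genes under 50 reads came out whole within 0.01. Gene lengths giving whole reads in the libraries were searched up to 20000 bases. In MEFs and for 7SK copies the shortest was taken, so reads are a minimum and intervals the widest. Intervals are exact 95% Clopper-Pearson intervals, and a count of 0 was set to 3 where no pseudocount was added. Since PCR copies are not separate molecules, the intervals describe the counting of reads only. They can be narrower than the error of counting molecules. At these depths a read on a gene of 1 kb adds between 0.0187 and 0.0271 RPKM. Trends on GC content, length and level were fitted with polynomials of degree 3 on GENCODE release 29 transcripts, in human protein-coding genes. Sequence was read from GENCODE. From each human file, 47 pseudoautosomal Y entries were dropped.

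The 8 genes and the lists were chosen with earlier results of these data known. In the lists, the rule names members called at 2-fold, up to 4, and otherwise the highest and the lowest, with the 5 genes nearest LARP7. Other genes named (the 7SL and other small RNAs, 7SK copies, NSL1) were chosen after their values were seen. Median-ratio, trimmed-mean and trend corrections, 2 pseudocounts and 2 level minimums were tried as alternatives. Steps were tested on simulated data. Work used Python 3.11.15, numpy 2.4.6, scipy 1.17.1 and pandas 2.3.3.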

Additional observations from a re-analysis of the deposited data

Results flagged for a closer look

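The following values lay on opposite sides of their controls in different cell types, with counting intervals that excluded 100% on both sides. These differences between cell types were not tested, since each rests on 1 library per group. They are given as differences of log2(RPKM) ratios. MEPCE differed by 1.03 between MDA-MB-231 (142% of control) and HCC1937 (69.7%). HEXIM1 differed by 0.79 between MEFs (136%) and HCC1937 (78.2%), and by 0.63 between MDA-MB-231 (121%) and HCC1937. CDK9 differed by -0.26 between MEFs (90.2%) and MDA-MB-231 (108%), and by 0.25 between MDA-MB-231 and HCC1937 (90.8%). In HCC1937 the median shift of all genes, once scaled away, leaves CDK9 at 99.6%, while the trend correction gave a log2 ratio of -0.27. RN7SL1, a 7SL gene, differed by -1.82 between MDA-MB-231 (53.4%) and HCC1937 (188%), and RN7SL2 by -1.81 (50.3% and 176%).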

How the results depend on the processing

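No direction reversed for the 2 values called at 2-fold, Larp7 and Rn7sk in MEFs. Rn7sk could not reverse, being at 0 in the knockout, so the check rests on Larp7 alone. Of 149 recomputed log2 ratios of the 8 genes, 126 moved by less than their counting error or not at all. The 126 include all ratios under the 2 level minimums, which can drop a gene but cannot change its ratio. Of 40 recomputed counts 35 stayed within 1.5 times. For LARP7, a pseudocount of 0.1 RPKM gave -0.92 in MDA-MB-231 and -0.94 in HCC1937, none gave -0.94 and -0.96, and removing the GC, length and level trend gave -0.66 and -0.49. Rn7sk in MEFs was -3.98 with a pseudocount of 0.1 RPKM and -2.60 with none and 0 set to 3 reads. A level minimum of 5 RPKM removed Rn7sk, which left 1 gene called in MEFs at 2-fold and 1 at 1.5-fold in place of 2. With the trend removed 1 gene was called at 1.5-fold in MDA-MB-231 in place of 2, since RN7SK is not protein-coding and was not fitted, and in HCC1937 the 1 gene called was MEPCE and not LARP7. In HCC1937, 2 genes were called at 1.5-fold with a pseudocount of 0.1 RPKM and 2 with none, the second being CCNT2. In MEFs, 3 were called with either, the third being Hexim2, which was higher (0.68 and 0.76). Uncalled ratios that crossed 0 were CCNT1 in MDA-MB-231 with the trend removed (0.01) and CDK9 in HCC1937 with trimmed-mean scaling (0.00). Of 138 recomputed list medians 122 kept their side of 0 and 16 did not. In HCC1937 median-ratio and trimmed-mean scaling turned the medians of the 7SK-bound proteins (0.07 and 0.08), release factors (0.13 and 0.14) and pausing factors (0.07 and 0.08) from below to above 0, as a level minimum of 5 RPKM did for release factors (0.08). In MDA-MB-231 the trend correction turned those of the 7SK-bound proteins (0.09), release factors (0.03) and pausing factors (-0.07), and the level minimum of 5 RPKM those of release factors (0.02) and the super elongation complex (0.01), which was 0.00 in MEFs with no level minimum. Without a level minimum the median of the small RNAs was 0 in each pair. Mouse transcripts were not used here, so the trend correction was not run in MEFs. No paired analysis was possible because each group holds 1 library, and for the same reason no replicate could be left out. Depth limits 7SK most: 0 to 222 reads per library.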
